A study of Caenorhabditis elegans with 15 samples.

Results

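The abu and pqn genes of Caenorhabditis elegans were read on whole-worm expression arrays of drug-treated wild-type worms and of a feeding mutant. Members were all genes with a symbol of the form abu or pqn followed by a number and at least 1 probe set annotated to that gene alone, and each gene was read by the probe set with the highest mean over the 15 arrays. This gave 58 genes, 11 abu and 47 pqn, of 17118 genes with a probe set of their own. By annotation 56 were protein-coding, and abu-3 and pqn-11 were pseudogenes.

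The abu genes take their name from a set first described as activated when the unfolded protein response of the endoplasmic reticulum is blocked, and the pqn genes from a stretch rich in glutamine and asparagine in the encoded protein, as in prion-like domains. The names overlap, since many abu proteins also carry such a stretch. A group of related abu and pqn genes is known to be expressed in the pharynx, the feeding organ, in step with the moult, and its products are linked to the cuticle that lines the pharynx. Other pqn genes share only the sequence feature and act elsewhere.

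The groups were eat-2 mutants given rapamycin, eat-2 mutants given vehicle (eat-2 controls), wild-type N2 worms given rapamycin, N2 worms given allantoin, and N2 worms given vehicle (N2 controls), with 3 arrays each. Worms of every group had 2% DMSO, were exposed for 72 h from the L4 moult and were kept at 20 °C. eat-2 encodes a subunit of a nicotinic acetylcholine receptor of pharyngeal muscle, its loss slows pharyngeal pumping, and the mutant (strain DA465) is a model of caloric restriction through low food intake. Rapamycin inhibits the TOR kinase, and allantoin is a purine breakdown product that the study had picked as a candidate mimetic of caloric restriction. No eat-2 worms given allantoin were analysed here. The sources used here do not say whether the 3 arrays of a group came from separate cultures, so the p-values measure the spread between these samples, which may be technical.

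Values are log2 signals as deposited, so a difference of 1 is 2-fold. The deposited log2 values ran from 3.14 to 14.86 and array medians from 6.79 to 7.05. A gene is called here when a comparison gave an unadjusted p under 0.05 in limma and a change over 2-fold, the threshold of the study, and adjusted p is the Benjamini-Hochberg value over all 22548 probe sets tested. The N2 controls were the widest group, with a median SD of 0.21 over all probe sets, against 0.0949 to 0.121 in the other 4 groups. On a scale where the allantoin-treated N2 mean was 0 and the rapamycin-treated N2 mean was 1 over all probe sets, the N2 control arrays 1, 2 and 3 lay at 0.12, 0.71 and 0.43, with the same values when the 58 members were left out. Of the members, 7 were dim in every group, with every group mean under 5.14, the level below which 25% of probe sets lay (abu-2, abu-3, pqn-10, pqn-11, pqn-16, pqn-20 and pqn-80). Probe sets of the kinds that can bind related transcripts read 27 members, 7 of them abu, so near-identical family members can share signal. Those abu genes were abu-4, abu-6, abu-8, abu-11, abu-12, abu-13 and abu-15.

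The abu family fell into 7 genes whose levels moved together over the arrays and 4 whose levels hardly moved. The 7 were abu-6, abu-8, abu-10, abu-11, abu-13, abu-14 and abu-15, a set put together after their values were seen and given here as a description. Of these, only abu-10 and abu-14 were read outside the kinds of probe set that can bind related transcripts. The signals of the others may be partly shared, so the 7 are not all separate measurements. In all 7 the 3 rapamycin-treated N2 arrays lay above all 9 arrays of the eat-2 groups and of allantoin-treated N2 worms. Their group means spanned 1.51 to 4.05 on the log2 scale, against 0.17 to 0.4 for abu-2, abu-3, abu-4 and abu-12.

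abu-14 read 7.49, 7.29 and 7.73 in rapamycin-treated eat-2 worms, 8.06, 8.28 and 7.61 in eat-2 controls, 10.54, 10.83 and 11.14 in rapamycin-treated N2 worms, 7.97, 7.99 and 8.41 in allantoin-treated N2 worms, and 8.38, 10.1 and 8.88 in N2 controls. All 3 rapamycin-treated N2 arrays were above every other array, and N2 control 2 stood above the other 2 controls. abu-15 read 6.11, 5.54 and 5.81 in rapamycin-treated eat-2 worms, 5.97, 6.92 and 6.34 in eat-2 controls, 9.39, 9.83 and 10.39 in rapamycin-treated N2 worms, 6.1, 5.92 and 7.57 in allantoin-treated N2 worms, and 7.38, 9.8 and 8.82 in N2 controls. Here N2 control 2 fell inside the range of the rapamycin-treated N2 arrays, while allantoin-treated array 3 overlapped N2 control 1.

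abu-11, whose overexpression is known to lengthen the life of worms, read 6.8, 6.66 and 6.81 in rapamycin-treated eat-2 worms, 6.6, 7.01 and 6.7 in eat-2 controls, 8.77, 9.1 and 9.54 in rapamycin-treated N2 worms, 6.68, 6.65 and 7.23 in allantoin-treated N2 worms, and 7.22, 8.9 and 8.06 in N2 controls. The eat-2 groups overlapped each other, and N2 control 2 again reached the rapamycin-treated N2 range. abu-13 read 6.67, 6.34 and 6.8 in rapamycin-treated eat-2 worms, 6.66, 6.46 and 6.83 in eat-2 controls, 7.83, 8.1 and 8.4 in rapamycin-treated N2 worms, 6.63, 6.59 and 7.27 in allantoin-treated N2 worms, and 6.66, 7.16 and 6.77 in N2 controls. abu-13 was high in rapamycin-treated N2 worms alone, and its other 4 groups overlapped.

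The remaining 3 of the 7 were likewise highest in rapamycin-treated N2 worms and next highest in N2 controls by group mean. abu-6 read 6.23, 5.89 and 6.11 in rapamycin-treated eat-2 worms, 6.33, 6.93 and 6.43 in eat-2 controls, 8.93, 9.52 and 9.88 in rapamycin-treated N2 worms, 6.14, 6.02 and 7.41 in allantoin-treated N2 worms, and 7.28, 9.75 and 8.53 in N2 controls. abu-8 read 6.48, 6.18 and 6.1 in rapamycin-treated eat-2 worms, 6.46, 6.91 and 6.87 in eat-2 controls, 8.96, 9.69 and 10.01 in rapamycin-treated N2 worms, 6.45, 6.31 and 7.54 in allantoin-treated N2 worms, and 7.28, 9.95 and 8.75 in N2 controls. For both genes N2 control 1 lay closer to the allantoin-treated arrays than to N2 control 2. abu-10 read 6.31, 5.92 and 5.99 in rapamycin-treated eat-2 worms, 5.69, 6.55 and 6.01 in eat-2 controls, 8.77, 9.53 and 9.68 in rapamycin-treated N2 worms, 6.26, 5.98 and 6.81 in allantoin-treated N2 worms, and 6.56, 9.44 and 8.18 in N2 controls. Its N2 controls spanned 2.88 on the log2 scale, the widest of the 7, and those of abu-13 spanned 0.5, the narrowest.

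**Figure D1:**
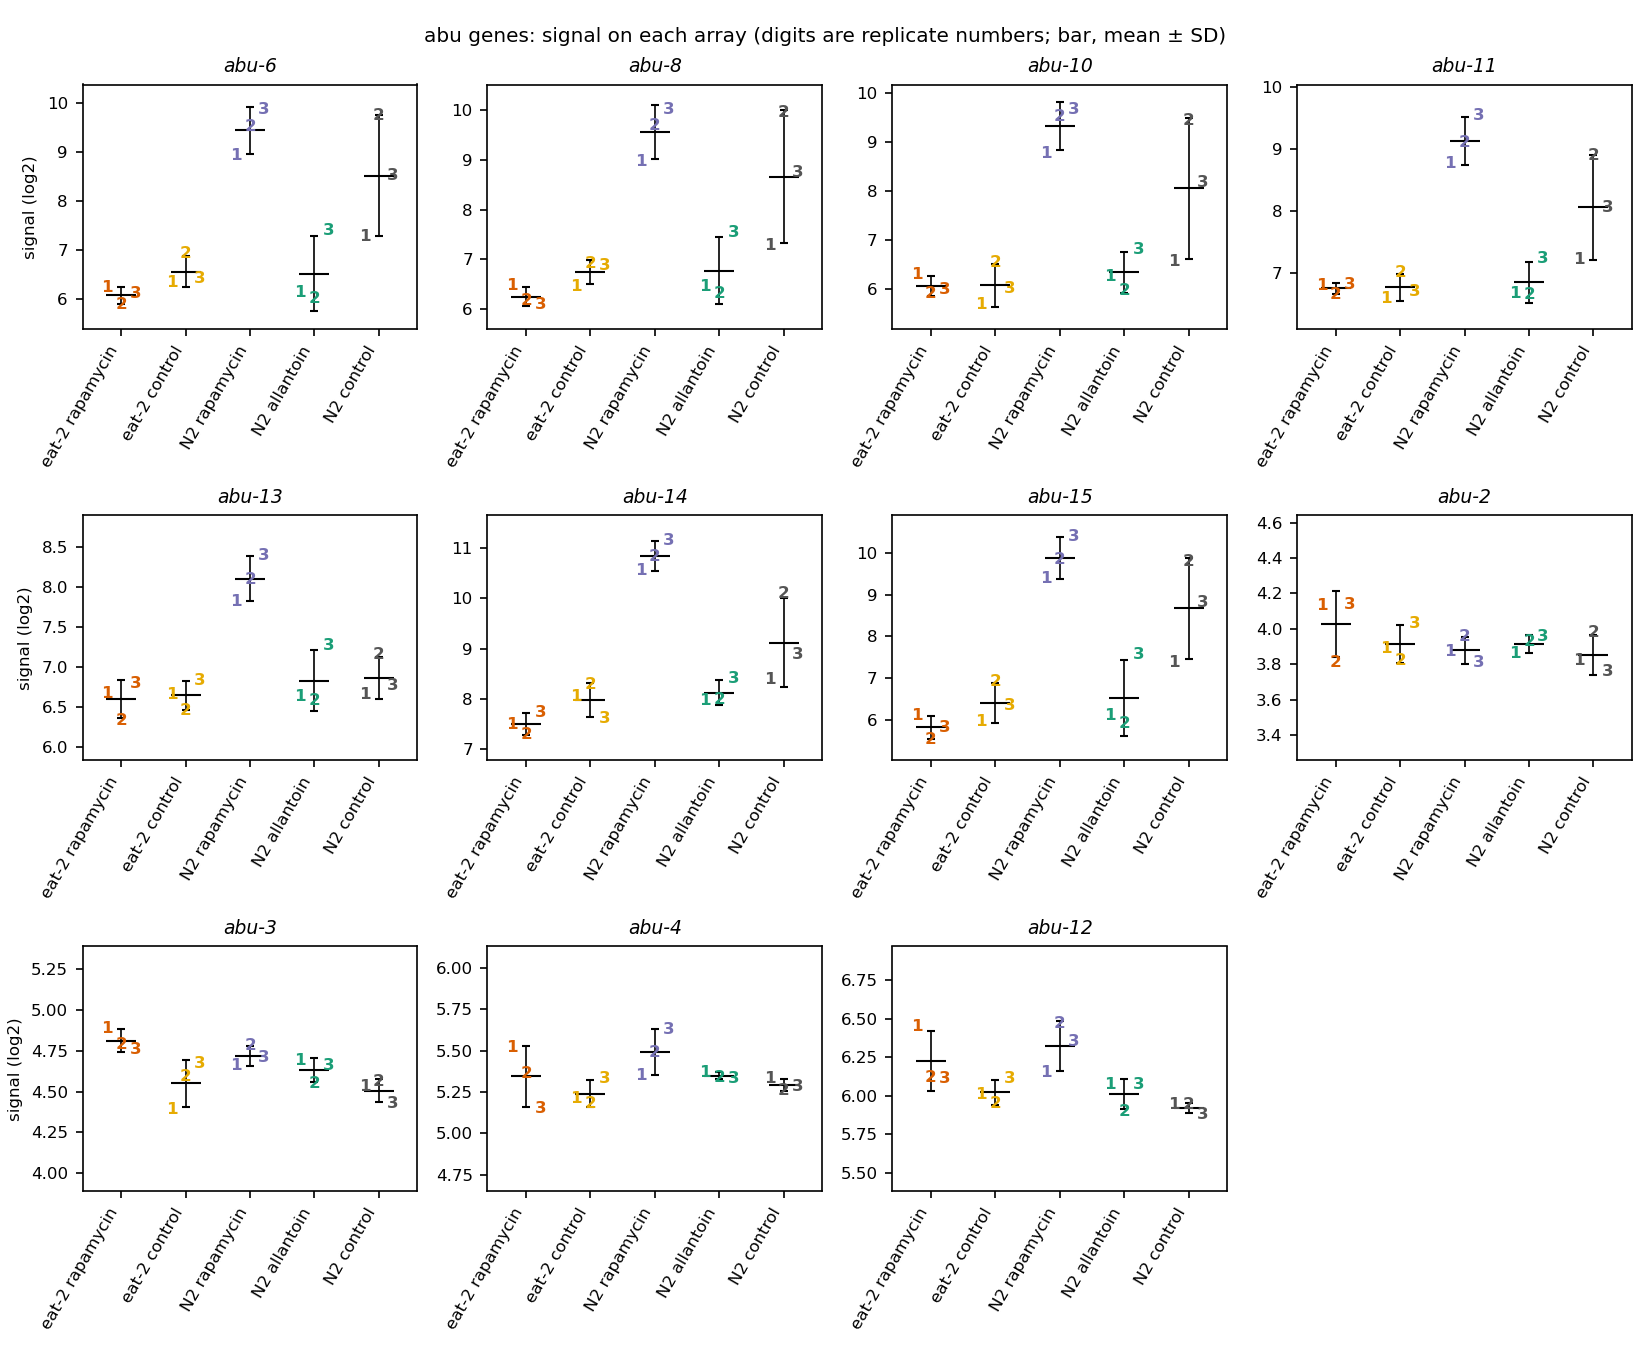
Log2 signal (y axis) of the 11 abu genes on each of the 15 arrays, by group along the x axis (rapamycin-treated eat-2, eat-2 control, rapamycin-treated N2, allantoin-treated N2, N2 control). Digits are replicate numbers and bars are the group mean ± SD (n = 3). In 7 panels the rapamycin-treated N2 arrays lie above all arrays of the eat-2 and allantoin-treated groups, with N2 control 2 the highest control, while abu-2, abu-3, abu-4 and abu-12 stay within 0.4 of each other in group mean.

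The spread of the N2 controls was ordered alike over these genes. The 7 were put together after their values were seen to move alike, so a shared order of arrays was partly built into that choice. Control 2 was above control 3, and control 3 above control 1, in 7 of 7, while abu-2, abu-3, abu-4 and abu-12 had other orders. Of the 47 pqn genes, which were not picked in that way, 14 had this order, but the share of all probe sets with it was not taken. Over all probe sets, the positions of controls 2, 3 and 1 between the allantoin-treated and rapamycin-treated N2 means had the same order (0.71, 0.43 and 0.12). The order is thus not particular to these families. Control 2 lay inside or above the range of the rapamycin-treated N2 arrays for 5 of the 7 (abu-13 and abu-14 were the exceptions), and controls 1 and 3 for 0. The median SD of the abu genes was 0.841 in the N2 controls, against 0.191 to 0.326 in the other groups. Allantoin-treated array 3 was the highest of its group in 7 of 7. Comparisons against the N2 controls therefore rest on widely spread values, and every one of them shares the same 3 control arrays.

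The remaining 4 abu genes were low and flat. abu-2 and the pseudogene abu-3 were under that level of 5.14 in every group, and abu-4 and abu-12 varied by at most 0.4 between group means. Over the 15 arrays, which share 5 groups and their treatment differences, the other 6 of the 7 had a Pearson r with abu-14 of 0.91 to 0.97, and of 0.62 to 0.93 after group means were taken out. For abu-2, abu-3, abu-4 and abu-12 the r with abu-14 was -0.26 to 0.44.

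Probe sets that name more than 1 family gene were kept apart from the members. There were 9 of them, and the one naming abu-7 and abu-8 read 6.7, 6.35 and 6.28 in rapamycin-treated eat-2 worms, 6.31, 6.94 and 6.6 in eat-2 controls, 8.92, 9.59 and 10 in rapamycin-treated N2 worms, 6.41, 6.28 and 7.48 in allantoin-treated N2 worms, and 7.3, 9.63 and 8.62 in N2 controls. The probe set naming abu-1 and pqn-2 read 5.97, 5.66 and 5.58 in rapamycin-treated eat-2 worms, 5.64, 5.62 and 5.73 in eat-2 controls, 7.77, 8.32 and 8.54 in rapamycin-treated N2 worms, 5.73, 5.7 and 6.14 in allantoin-treated N2 worms, and 5.96, 7.2 and 7.14 in N2 controls. Both shared probe sets were thus highest in rapamycin-treated N2 worms and lay, like the 7 genes, lower in the eat-2 groups. In rapamycin-treated eat-2 against rapamycin-treated N2 worms they differed by -3.06 and -2.47 on the log2 scale. The other shared probe sets, those naming abu-5 and abu-9 included, differed there by only -0.22 to -0.87. abu-15, abu-6 and abu-7 are neighbours on chromosome V with 0 coding genes between them in the RefSeq gene table of assembly WBcel235, and abu-8 lies beyond 6 more. A second probe set of abu-14 followed the first over the 15 arrays (r = 0.99), whereas the second probe set of abu-10 was dim (mean 4.42) and ran the other way (r = -0.8).

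Rapamycin was associated with higher abu signal in N2 worms. abu-13 and abu-14 stood clear of all N2 controls, at 2.37-fold and 3.29-fold, and abu-11 was 2.11-fold higher with overlapping arrays. abu-3, abu-4 and abu-12 also lay above all N2 controls, but by only 0.21, 0.2 and 0.4 on the log2 scale. All 11 abu genes had a positive change, down to 0.03 for abu-2, with a median of 0.92 on the log2 scale, against -0.02 over all probe sets. The shares of all probe sets that separated upward or had a positive change are not given here, so these counts have no background beside them. In all, 3 of 11 abu genes were called higher and 0 lower, where 5.15% of all probe sets were called higher. At adjusted p, 1 abu gene (9.09%) was called, where 9.38% of all probe sets were called in either direction. The share at adjusted p was thus not above the background.

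abu-14 averaged 10.84 ± 0.3 in rapamycin-treated N2 worms and 9.12 ± 0.89 in N2 controls (SD, n = 3 each), a log2 change of 1.72 ± 0.44 (SE) with adjusted p = 0.0575. For abu-13 the means were 8.11 ± 0.28 in rapamycin-treated N2 worms and 6.86 ± 0.27 in N2 controls, and the log2 change was 1.25 ± 0.2 (SE, adjusted p = 0.0272), the only abu gene under 0.05 after adjustment. abu-11 changed by 1.08 ± 0.43 (SE, adjusted p = 0.145). The other 4 of the 7 were not called, with log2 changes of 0.92 for abu-6 (95% interval -0.56 to 2.41), 0.89 for abu-8, 1.27 for abu-10 and 1.2 for abu-15. Without N2 control 2 the count was 7 of 11, the abu median was 1.5 and abu-14 changed by 2.21. Leaving out any other single array gave 2 called, abu-13 and abu-14 each time.

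Pharyngeal and moulting markers were measured beside the abu genes. Of 23 moulting genes, 13 were called higher and 1 lower in rapamycin-treated N2 worms, with a median of 1.8. Of all probe sets 5.15% were called higher and 8.41% in either direction. mlt-11, a protease inhibitor needed for the moult, read 10.61, 11.33 and 11.01 in rapamycin-treated N2 worms, against 7.87, 8.75 and 7.65 in N2 controls (log2 change 2.89 ± 0.33 SE, adjusted p = 0.0153). None of the 3 treated arrays overlapped a control. Of 5 pharyngeal muscle genes, 0 were called, with a median of 0.32, and of 8 pharyngeal gland genes 2 were called higher, phat-2 (1.39) and phat-4 (1.54). The summed linear signal of the pharyngeal muscle list was 5210 to 6350 in rapamycin-treated N2 worms and 3040 to 6970 in N2 controls, with the highest sum in control 2. In whole worms, more cells of a type and more RNA per cell cannot be told apart, and the part of these markers in the abu values was not tested.

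Allantoin was associated with lower abu signal, measured against the spread controls. abu-15, abu-6, abu-8 and abu-11 were called lower, by 4.4-fold, 3.99-fold, 3.71-fold and 2.3-fold, but for none of them, nor for the other 3 of the 7, were the allantoin-treated and control arrays separate. Thus 4 of 11 abu genes were called lower and 0 higher, where 3.16% of all probe sets were called lower. The median change of the abu genes was -0.99, against 0.05 over all probe sets. No probe set on the array, abu or other, passed an adjusted p under 0.05 in limma. An unadjusted p under 0.05 was found for 4 abu and 11 pqn genes, but the share of all probe sets at that rule was not taken.

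abu-15 averaged 6.53 ± 0.9 in allantoin-treated N2 worms and 8.67 ± 1.2 in N2 controls (SD, n = 3 each), a log2 change of -2.14 ± 0.71 (SE, adjusted p = 0.236). abu-10 (-1.71), abu-14 (-0.99) and abu-13 (-0.03) were not called. The abu count was 0 without allantoin-treated array 1, allantoin-treated array 2, N2 control 2 or N2 control 3, and 6 without N2 control 1. Without N2 control 2 the abu median was -0.5. All 5 pharyngeal muscle genes were called lower in the same comparison, where 3.16% of all probe sets were, with a median of -1.14. myo-2, a myosin heavy chain of pharyngeal muscle, changed by -1.17 ± 0.31 (SE, adjusted p = 0.236). The summed signal of that list was 1900 to 2290 in allantoin-treated N2 worms and 3040 to 6970 in N2 controls, so those groups did not overlap, and its part in the abu values was not tested.

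The eat-2 mutation, in vehicle, went with lower abu signal as well. abu-6, abu-8, abu-10, abu-11, abu-14 and abu-15 were called lower, from 2.19-fold for abu-14 to 4.78-fold for abu-15, and in all 6 the 3 eat-2 control arrays lay below the 3 N2 controls. In total 6 of 11 abu genes were called lower and 0 higher, where 0.812% of all probe sets were called lower, and groups separated downward for 5.16% of all probe sets. The abu median was -1.13, against 0.02 over all probe sets. abu-13 differed by -0.21 and was not called.

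abu-15 averaged 6.41 ± 0.48 in eat-2 controls and 8.67 ± 1.2 in N2 controls (SD, n = 3 each), a log2 difference of -2.26 ± 0.62 (SE). Adjusted p of the 7 genes was 0.518 to 0.744, and 0 abu genes were called at adjusted p in limma, where 0.0399% of all probe sets were. An unadjusted p under 0.05 was found for 6 abu genes, with no share of all probe sets taken at that rule. The count was 1 without eat-2 control 1 or 3, 3 without N2 control 2, and 2 without N2 control 3. Without N2 control 2 the abu median was -0.64 and abu-15 differed by -1.69. The pharyngeal muscle sum was 3060 to 3390 in eat-2 controls and 3040 to 6970 in N2 controls, with 0 of 5 genes called and a median of -0.54.

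In eat-2 worms rapamycin left the abu genes without a call. Of 11 abu genes 0 were called, where 3.06% of all probe sets were called in either direction. An unadjusted p under 0.05 in limma was found for 4 abu genes, with no share of all probe sets taken at that rule. Of these the dim pseudogene abu-3 was higher (0.27), and abu-6 (-0.48), abu-8 (-0.49) and abu-14 were lower. The changes of the 7 genes ran from -0.59 to -0.01. The largest fall was that of abu-15, at 5.82 ± 0.29 in rapamycin-treated eat-2 worms and 6.41 ± 0.48 in eat-2 controls (SD, n = 3 each), a log2 change of -0.59 (95% interval -1.2 to 0.02). abu-14 changed by -0.48 (95% interval -0.94 to -0.03), and abu-13 by -0.05 (95% interval -0.4 to 0.3). The abu median was -0.01, against 0.03 over all probe sets, and adjusted p of the 7 was 0.0837 to 0.98.

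The effect of rapamycin was tested for a difference between strains with an interaction term, the change in eat-2 worms minus the change in N2 worms. abu-14 and abu-13 had an interaction of -2.2 ± 0.52 and -1.29 ± 0.26 (SE), with adjusted p = 0.0148 and adjusted p = 0.00825. abu-15 (-1.79, adjusted p = 0.0926) and abu-11 (-1.09, adjusted p = 0.123) were called without passing the adjustment. This made 4 of 11 abu genes called lower, where 8.41% of all probe sets were. At adjusted p, 2 abu genes were called, where 24.4% of all probe sets were called in either direction. The abu median was -1.28, against 0.04 over all probe sets. The count was 7 without N2 control 2, and 2 without rapamycin-treated eat-2 array 2 or 3, eat-2 control 2, or rapamycin-treated N2 array 2 or 3, and abu-13 and abu-14 were called in every one of these fits. Of the 23 moulting genes 14 had a called negative interaction and 0 a positive one.

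Further comparisons set the other drug-treated groups beside rapamycin-treated N2 worms. Rapamycin-treated eat-2 worms had 7 of 11 abu genes called lower than rapamycin-treated N2 worms, by 2.84-fold for abu-13 to 16.6-fold for abu-15, where 11.2% of all probe sets were called lower. All 7 were separate in their arrays, where 28.2% of all probe sets separated downward. The abu median was -2.38, against 0.1 over all probe sets. All 7 also passed at adjusted p, where 58% of all probe sets did in either direction. abu-14 averaged 7.5 ± 0.22 in rapamycin-treated eat-2 worms and 10.84 ± 0.3 in rapamycin-treated N2 worms (SD, n = 3 each), a difference of -3.33 ± 0.17 (SE, adjusted p = 2.81e-06). The difference of abu-15 was -4.05 ± 0.25 (SE, adjusted p = 6.95e-06). Leaving out each of the 6 arrays in turn gave 7 called every time.

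Rapamycin-treated N2 worms had 7 of 11 abu genes called higher than allantoin-treated N2 worms, by 2.43-fold for abu-13 to 10.1-fold for abu-15, where 11.9% of all probe sets were called higher. The abu median was 2.28, against -0.07 over all probe sets. abu-10 averaged 9.33 ± 0.49 in rapamycin-treated N2 worms and 6.35 ± 0.42 in allantoin-treated N2 worms (SD, n = 3 each), a difference of 2.98 ± 0.27 (SE, adjusted p = 1.89e-05). At adjusted p the count was 8, with abu-12 (0.31) the added gene, where 61.3% of all probe sets passed in either direction. Leaving out each array in turn gave 7 called every time. Both of these comparisons use the same 3 rapamycin-treated N2 arrays.

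The same markers moved in these comparisons too. Pharyngeal muscle genes were called lower for 4 of 5 in rapamycin-treated eat-2 worms against rapamycin-treated N2 worms, where their summed signal was 2010 to 3140 in the eat-2 worms and 5210 to 6350 in the N2 worms. Pharyngeal gland genes were called lower for 4 of 8, phat-4 by -2.01 among them, and at adjusted p 4 were lower and 1 higher. phat-6 went the other way, at 8.5, 8.47 and 8.49 in the eat-2 worms against 8.05, 7.88 and 7.8 in the N2 worms, and hlh-6 was also higher by group mean. The summed signal of the gland list was 4730 to 6220 in the eat-2 worms and 7080 to 9240 in the N2 worms. Moulting genes were called lower for 13 of 23 and higher for 1. Their summed signals were 12900 to 13700 in the eat-2 worms and 28200 to 33500 in the N2 worms. Of all probe sets 11.2% were called lower in that comparison. In rapamycin-treated against allantoin-treated N2 worms, 5 of 5 pharyngeal muscle, 4 of 8 gland and 12 of 23 moulting genes were called higher. Of all probe sets 11.9% were called higher there. Under 5.14 by group mean lay 1 of the 5 pharyngeal muscle genes in allantoin-treated N2 worms, 1 of the 23 moulting genes in each eat-2 group and 0 of the 8 gland genes. The part of these lists in the abu values was not tested.

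**Figure D2:**
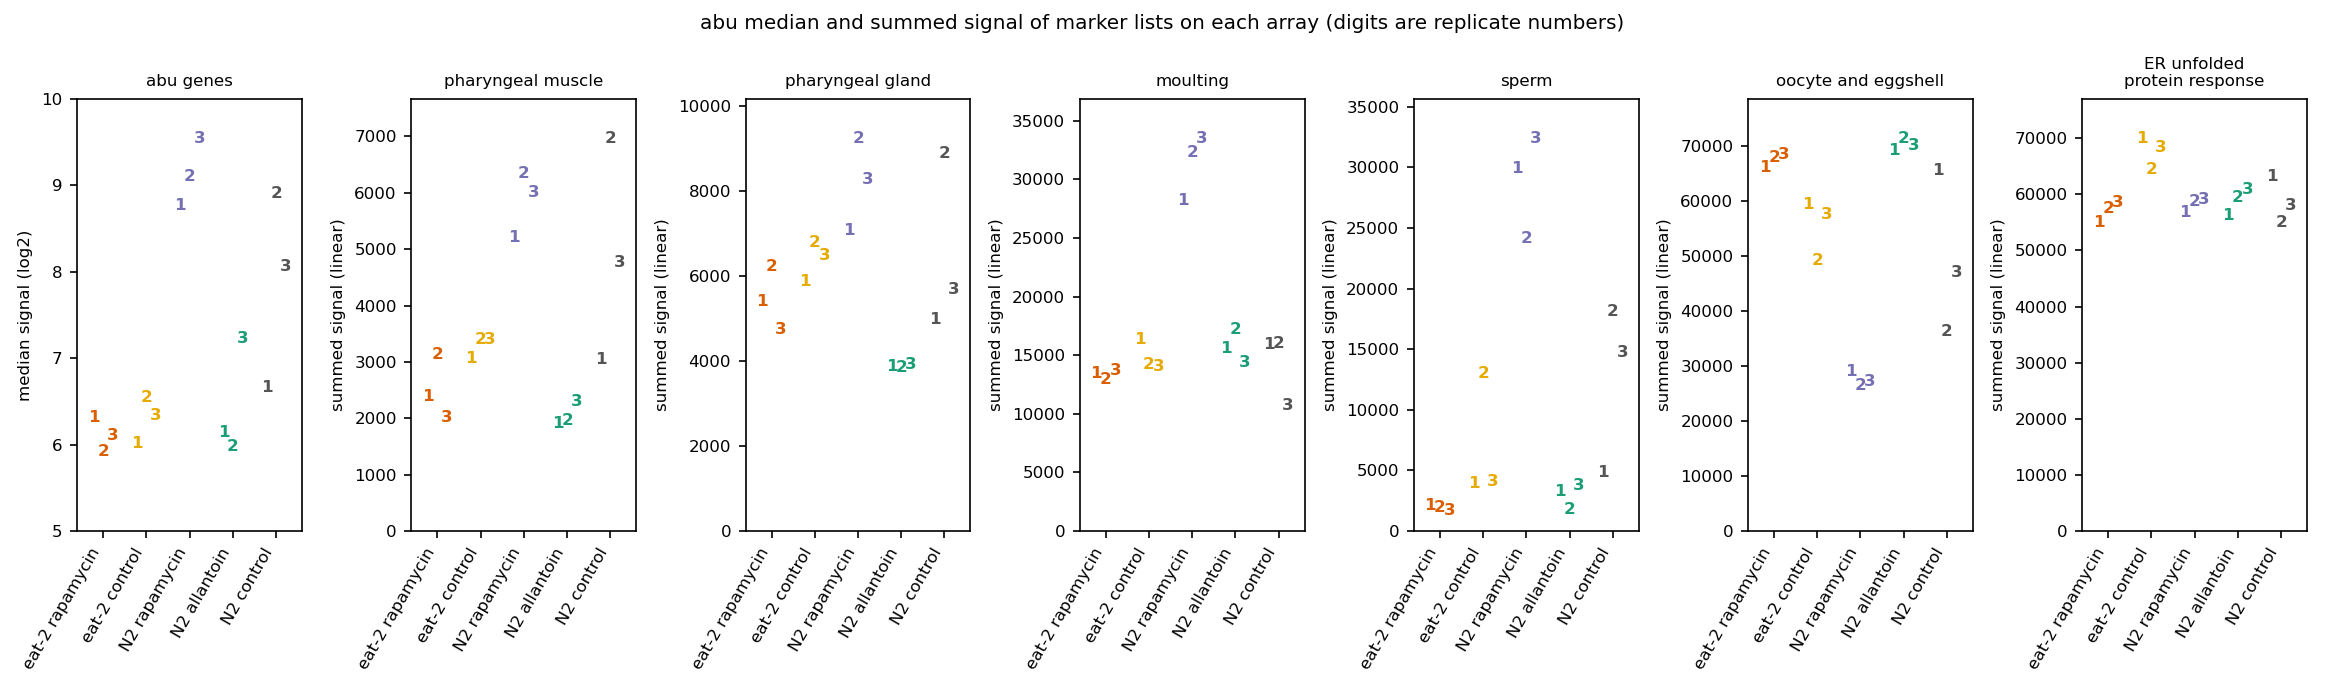
Left panel: median log2 signal of the 11 abu genes on each array. Other panels: summed linear signal of 6 marker lists on each array, starting at 0, with groups along the x axis and digits as replicate numbers. Rapamycin-treated N2 arrays lie above all others for moulting and sperm. N2 control 2 lies among them for abu (8.9, above 8.77 in rapamycin-treated N2 array 1), and it exceeds them for pharyngeal muscle (6970, against at most 6350). The unfolded protein response list runs from 55000 to 70000, with the eat-2 controls (64400 to 70000) above all other arrays (at most 63200).

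Genes of the endoplasmic reticulum unfolded protein response, the pathway from which the abu name comes, were a fixed list of 20. In each of the 7 comparisons 0 of 20 were called at the 2-fold threshold, with medians from -0.17 to 0.2. Their summed signal was 64400 to 70000 in eat-2 controls, above all other arrays, and 55000 to 63200 in N2 controls. Smaller changes did pass at adjusted p, up to 9 of 20 genes, for rapamycin-treated against allantoin-treated N2 worms, where 2 were higher and 7 lower. In that comparison 61.3% of all probe sets passed in either direction, so the share was not above the background. hsp-4, the inducible chaperone of the response, differed by -0.06 ± 0.22 (SE) between rapamycin-treated N2 worms and N2 controls. Of 6 genes for chitin synthesis and related steps, 3 were called higher in rapamycin-treated eat-2 worms than in rapamycin-treated N2 worms. In rapamycin-treated against allantoin-treated N2 worms 4 were called lower. Of all probe sets 18.7% and 20.4% were called in either direction in these comparisons. Among the 6 genes chs-2, the chitin synthase of the pharynx, was not called in any comparison. The eggshell chitin synthase chs-1 was higher by 1.5 in rapamycin-treated eat-2 worms than in rapamycin-treated N2 worms (adjusted p = 5.53e-06).

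The pqn family was a mixture. Between the 5 group means 36 of 47 pqn genes stayed within 1 on the log2 scale, and 11 spanned 1 or more, up to 3.05 for pqn-31. The median span was 0.58. Over the 15 arrays 15 pqn genes had an r with abu-14 above 0.5, 13 below -0.5 and 19 between, from -0.93 for pqn-27 and pqn-82 to 0.96 for pqn-74. The group with the highest mean was rapamycin-treated N2 for 16 pqn genes, eat-2 control for 13, rapamycin-treated eat-2 for 10, allantoin-treated N2 for 5 and N2 control for 3, whereas for the abu genes it was rapamycin-treated N2 for 9 and rapamycin-treated eat-2 for 2.

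pqn-31 read 7.39, 8.4 and 7.42 in rapamycin-treated eat-2 worms, 8.04, 8.5 and 8.38 in eat-2 controls, 9.65, 10.42 and 10.16 in rapamycin-treated N2 worms, 6.68, 6.64 and 7.76 in allantoin-treated N2 worms, and 8.05, 9.59 and 9.23 in N2 controls. The rapamycin-treated N2 arrays were above and the allantoin-treated arrays below all N2 controls. pqn-94 read 10.41, 10.72 and 10.23 in rapamycin-treated eat-2 worms, 10.93, 11.49 and 11.14 in eat-2 controls, 11.76, 12.21 and 11.95 in rapamycin-treated N2 worms, 9.7, 9.85 and 10.17 in allantoin-treated N2 worms, and 10.78, 12.27 and 11.58 in N2 controls. Its allantoin-treated arrays were the lowest of all groups, and N2 control 2 was its highest array.

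pqn-74 read 6.9, 6.45 and 6.49 in rapamycin-treated eat-2 worms, 6.76, 6.79 and 6.68 in eat-2 controls, 8.11, 8.4 and 9.06 in rapamycin-treated N2 worms, 6.48, 6.52 and 6.69 in allantoin-treated N2 worms, and 6.81, 8.14 and 7.44 in N2 controls. Its arrays followed the abu order, with N2 control 2 just above rapamycin-treated N2 array 1. pqn-89 read 6.94, 7.17 and 7.11 in rapamycin-treated eat-2 worms, 7.66, 7.77 and 7.74 in eat-2 controls, 8.35, 8.25 and 8.44 in rapamycin-treated N2 worms, 6.8, 6.97 and 7.32 in allantoin-treated N2 worms, and 7.58, 7.81 and 7.65 in N2 controls. pqn-89 had tight controls and went up with rapamycin in N2 worms and down with it in eat-2 worms.

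pqn-82 ran opposite to the abu genes, at 7.39, 7.3 and 7.26 in rapamycin-treated eat-2 worms, 7.05, 7.1 and 7.02 in eat-2 controls, 6.24, 6.32 and 5.9 in rapamycin-treated N2 worms, 7.43, 7.34 and 6.83 in allantoin-treated N2 worms, and 7.19, 6.32 and 7.2 in N2 controls. N2 control 2 shared its low value with rapamycin-treated N2 array 2. pqn-65 was likewise lowest in rapamycin-treated N2 worms, at 8.52, 8.91 and 8.69, against 9.73, 10 and 10.06 in allantoin-treated N2 worms and 10.09, 9.26 and 9.29 in N2 controls. The rapamycin-treated arrays lay below both other groups.

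**Figure D3:**
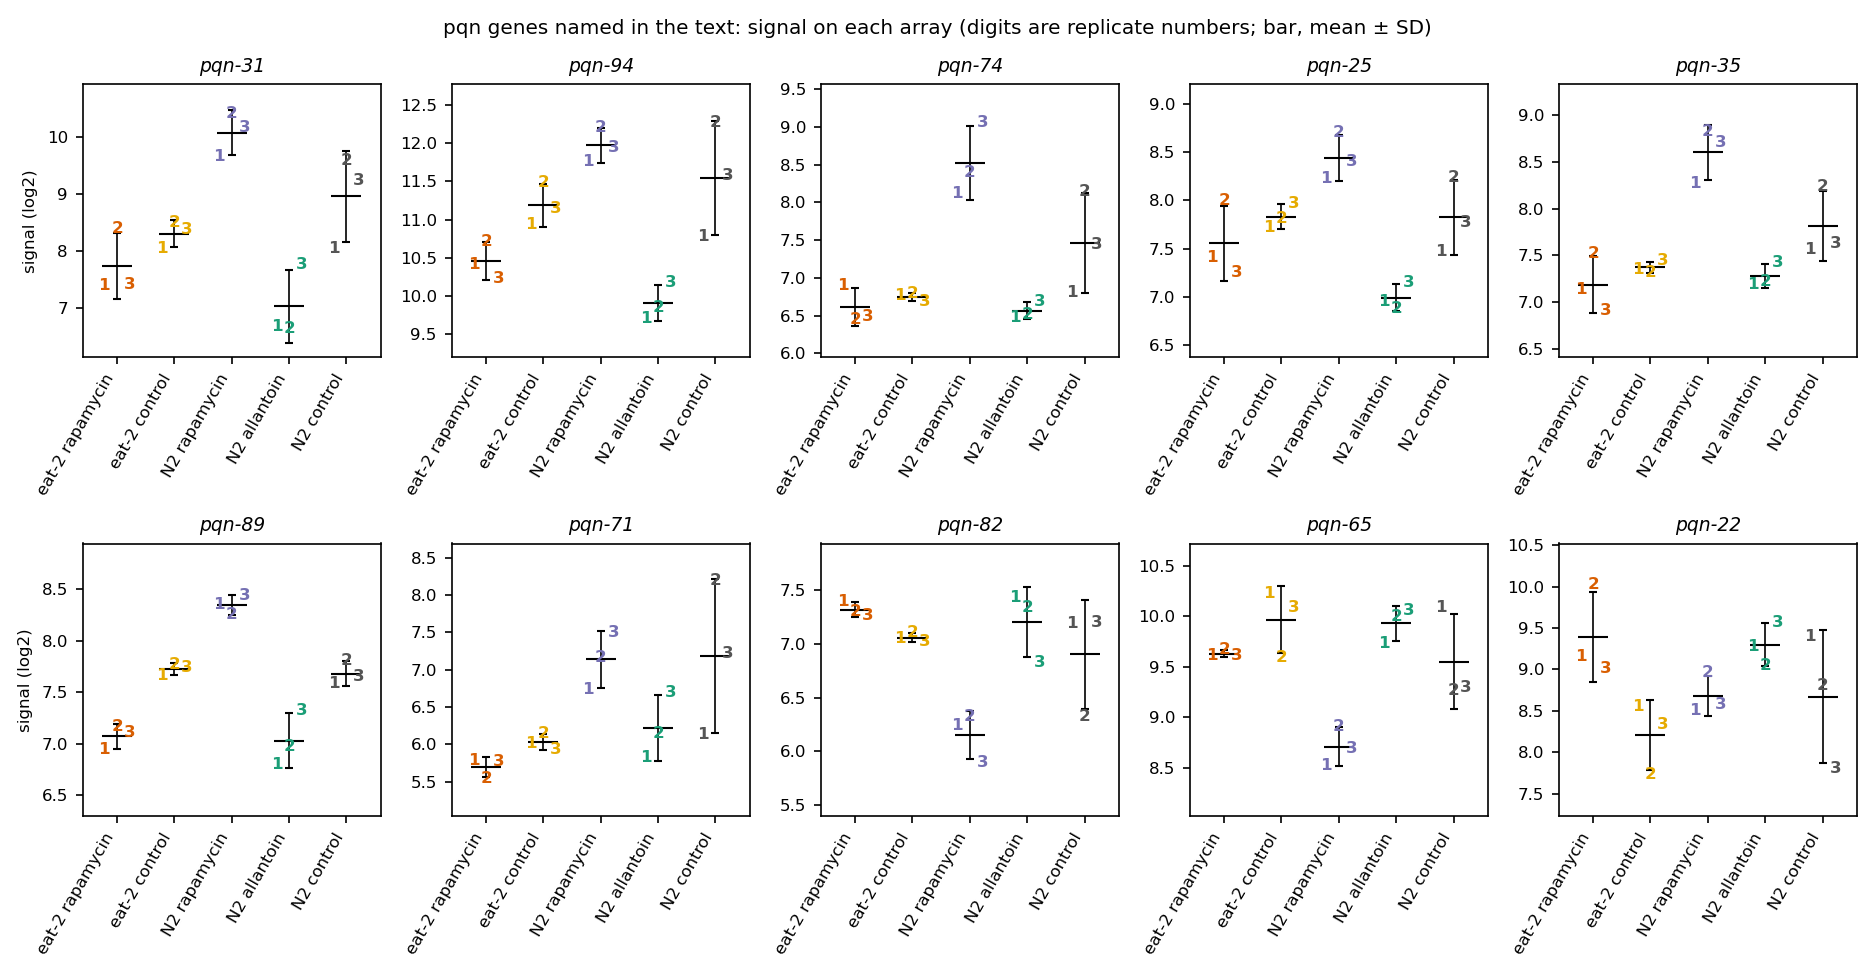
Log2 signal (y axis) of 10 pqn genes on each of the 15 arrays, by group along the x axis, with digits as replicate numbers and bars as group mean ± SD (n = 3). pqn-31, pqn-94, pqn-74, pqn-25, pqn-35 and pqn-89 are highest in rapamycin-treated N2 worms by group mean, while pqn-82 and pqn-65 are lowest there.

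In rapamycin-treated N2 worms against N2 controls, 2 of 47 pqn genes were called higher and 0 lower, where 8.41% of all probe sets were called in either direction. pqn-31 rose 2.17-fold (log2 1.12 ± 0.42 SE, adjusted p = 0.128) and pqn-74 2.09-fold (log2 1.06 ± 0.39 SE, adjusted p = 0.12). At adjusted p 4 of 47 pqn genes (8.51%) passed, where 9.38% of all probe sets did in either direction, so the share was not above the background. All were higher and all under 2-fold, pqn-89 (0.67, adjusted p = 0.029), pqn-13 (0.57), pqn-24 (0.6) and pqn-26 (0.75). The pqn median was 0.04, against -0.02 over all probe sets. The count was 0 without rapamycin-treated array 2, rapamycin-treated array 3 or N2 control 1, 1 without N2 control 3, and 4 without N2 control 2.

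In allantoin-treated N2 worms against N2 controls, 2 of 47 pqn genes were called lower and 0 higher, where 4.05% of all probe sets were called in either direction. They were pqn-31, 3.81-fold lower (log2 -1.93 ± 0.49 SE), and pqn-94, 3.11-fold lower (log2 -1.64 ± 0.38 SE), each with adjusted p = 0.236 and with arrays apart from the controls. Over the family 11 pqn genes lay wholly below the controls and 3 wholly above, where 12.7% and 16.2% of all probe sets did. The pqn median was -0.01, against 0.05 over all probe sets. Without N2 control 1 the count was 6, and without each of the other 5 arrays it was 2.

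The eat-2 mutation in vehicle gave 0 of 47 pqn calls in limma, where 1.52% of all probe sets were called. An unadjusted p under 0.05 was found for 2 pqn genes, with no share of all probe sets taken at that rule. pqn-71 differed most, by -1.15 on the log2 scale, with eat-2 controls at 6.01, 6.15 and 5.93 and N2 controls at 6.13, 8.19 and 7.22. N2 control 1 overlapped the eat-2 controls. Without N2 control 1 the count was 3. The pqn median was 0.03, against 0.02 over all probe sets.

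Rapamycin in eat-2 worms raised 1 of 47 pqn genes past the 2-fold threshold, pqn-22, where 1.15% of all probe sets were called higher. pqn-22 read 9.15, 10.02 and 9.01 in rapamycin-treated eat-2 worms, against 8.55, 7.73 and 8.34 in eat-2 controls (log2 1.19 ± 0.31 SE, adjusted p = 0.0522). The arrays were separate, and the call was lost without rapamycin-treated eat-2 array 2 (0.87) or eat-2 control 2 (0.95). At adjusted p 5 pqn genes were lower by less than 2-fold, where 13.8% of all probe sets passed in either direction, namely pqn-94 (-0.73), pqn-89 (-0.65), pqn-13 (-0.43), pqn-53 (-0.41) and pqn-42 (-0.31). The pqn median was -0.05, against 0.03 over all probe sets.

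Between strains under rapamycin, 6 of 47 pqn genes were called lower and 1 higher in eat-2 worms, where 18.7% of all probe sets were called in either direction. pqn-31 (-2.34 ± 0.3 SE), pqn-74 (-1.91), pqn-94 (-1.52), pqn-71 (-1.44), pqn-35 (-1.42) and pqn-89 (-1.27) were lower, and pqn-82 (1.16) was higher. pqn-35 read 7.13, 7.52 and 6.91 in rapamycin-treated eat-2 worms, against 8.27, 8.83 and 8.71 in rapamycin-treated N2 worms, with no overlap. The pqn median was 0.07, against 0.1 over all probe sets.

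Between the drugs in N2 worms, 6 pqn genes were called higher under rapamycin and 2 lower, where 20.4% of all probe sets were called in either direction. pqn-31 was 8.26-fold higher (log2 3.05 ± 0.31 SE, adjusted p = 3.76e-05), followed by pqn-94 (2.07), pqn-74 (1.97), pqn-25 (1.45), pqn-35 (1.32) and pqn-89 (1.31), while pqn-65 (-1.22) and pqn-82 (-1.05) were lower. pqn-25 read 8.23, 8.7 and 8.4 in rapamycin-treated N2 worms, against 6.95, 6.88 and 7.15 in allantoin-treated N2 worms, without overlap. The pqn median was 0.05, against -0.07 over all probe sets.

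**Figure D4:**
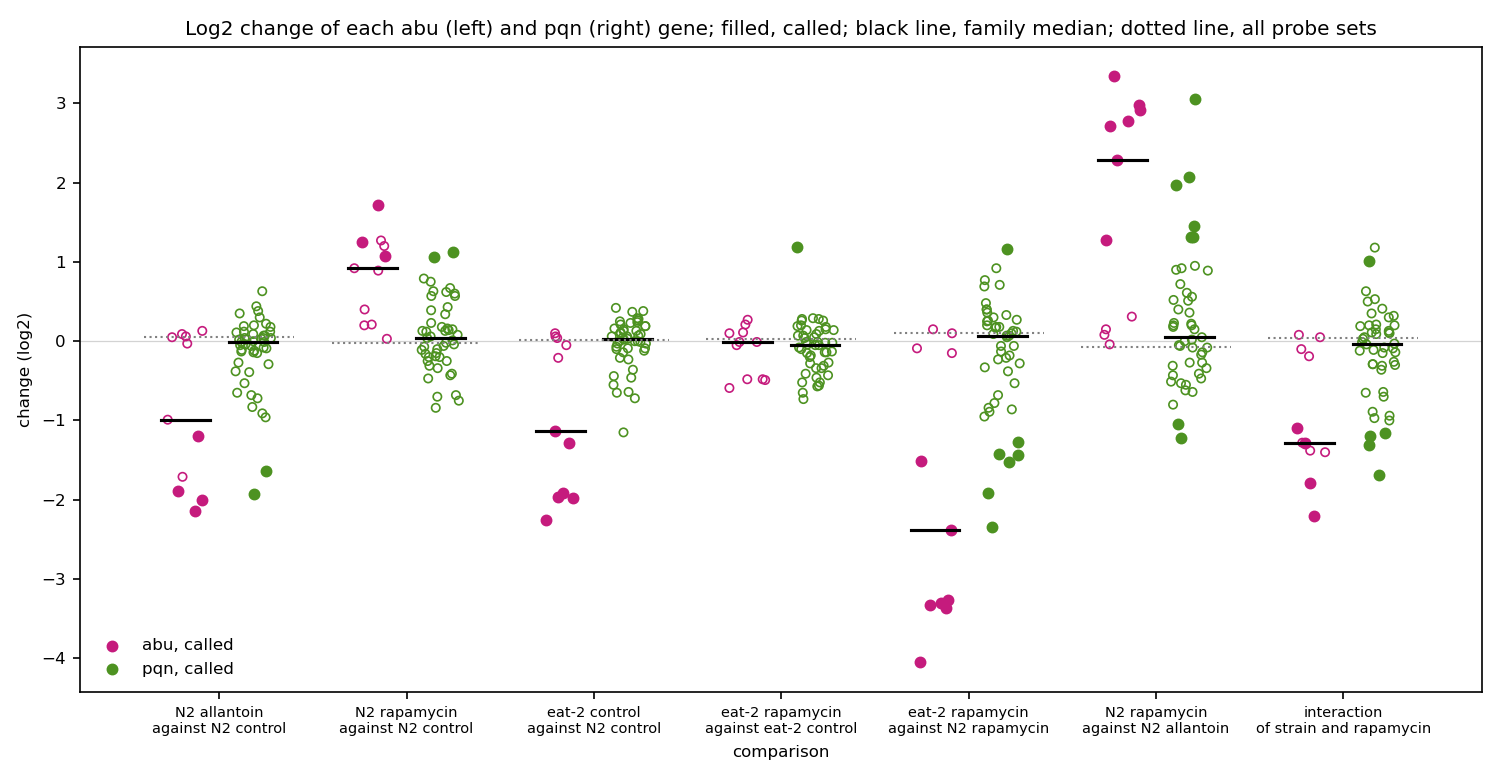
Log2 change (y axis) of each member in the comparisons along the x axis, abu genes on the left and pqn genes on the right. Filled points are called genes, black lines are family medians and dotted lines are the median of all probe sets. The abu median departs from that of all probe sets in 6 of the 7 comparisons, by -2.38 against 0.1 for rapamycin-treated eat-2 against rapamycin-treated N2 worms, while the pqn median stays near it throughout.

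The interaction of strain and rapamycin was called for 5 of 47 pqn genes, 4 negative and 1 positive, where 13.7% of all probe sets were called. pqn-89 had -1.31 ± 0.13 (SE, adjusted p = 6.02e-04), pqn-31 -1.69 ± 0.55 (SE, adjusted p = 0.0482), pqn-74 -1.19 (adjusted p = 0.0715) and pqn-94 -1.16 (adjusted p = 0.0791). pqn-82 had 1.01 ± 0.29 (SE, adjusted p = 0.0319). At adjusted p 10 pqn genes passed, 2 positive and 8 negative, where 24.4% of all probe sets did, and pqn-13 had the next largest interaction of these after pqn-82 (-1, adjusted p = 0.00312). The count was 2 without N2 control 1, 3 without rapamycin-treated N2 array 3, and 8 without rapamycin-treated eat-2 array 2 or rapamycin-treated N2 array 1.

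The pqn genes chosen for their known roles, pqn-41, pqn-59 and pqn-75, were called in 0 of the 7 comparisons. pqn-41, which is needed for the death of the male linker cell, read 7.94, 8.2 and 7.88 in rapamycin-treated eat-2 worms, 8.44, 7.94 and 8.45 in eat-2 controls, 7.69, 7.89 and 7.93 in rapamycin-treated N2 worms, 8.12, 7.83 and 7.7 in allantoin-treated N2 worms, and 8.2, 7.61 and 8.27 in N2 controls. pqn-59, a relative of a human stress granule protein, read between 10.94 and 11.62 over the 15 arrays. pqn-75, which is expressed in pharyngeal gland cells, read 7.93, 8.94 and 8.07 in rapamycin-treated eat-2 worms, 7.96, 7.82 and 8.3 in eat-2 controls, 8.32, 8.65 and 8.35 in rapamycin-treated N2 worms, 8.68, 8.63 and 8.53 in allantoin-treated N2 worms, and 8.53, 7.98 and 8.27 in N2 controls. Their groups overlapped with the N2 controls in pqn-41 and pqn-59, and all 3 allantoin-treated arrays of pqn-75 were at or above the highest N2 control.

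**Figure D5:**
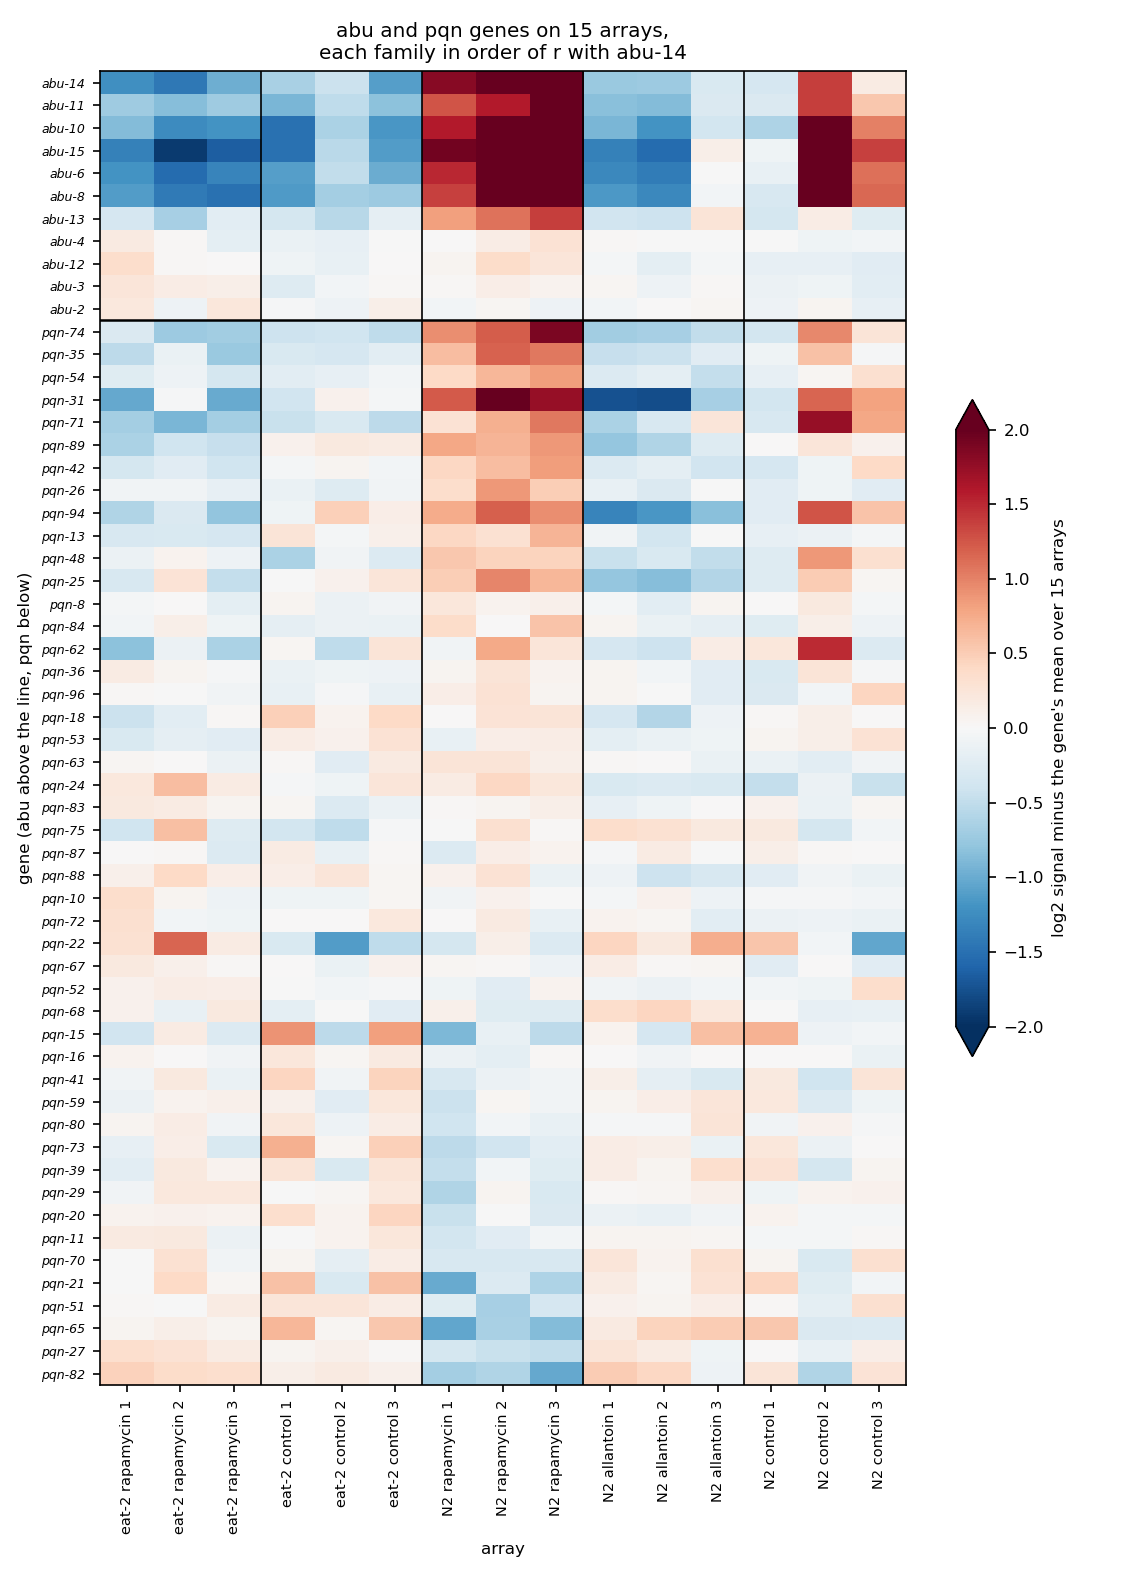
Log2 signal minus the gene's mean over the 15 arrays (colour, from -2 to 2) for the 58 members (y axis) on each array (x axis, by group), ordered within each family by r with abu-14. The 7 abu genes and the pqn genes of highest r are high on the rapamycin-treated N2 arrays, and the pqn genes of lowest r, down to -0.93, are low there.

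Outside both families, the 5 genes whose 15 array values followed the mean log2 signal of the 11 abu genes most closely, among 17060 genes, were ZK662.2 (r = 0.988), idpp-12 (0.986), nspb-12 (0.985), T25E4.1 (0.982) and tyr-2 (0.981). Each had its highest group mean in rapamycin-treated N2 worms, 9.75 for ZK662.2, 9.67 for idpp-12 and 8.8 for tyr-2, against 8.02, 8.65 and 8.15 in N2 controls. The 15 arrays share the 5 groups and the same control spread, so these values describe likeness over these arrays and carry no test.

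Markers of other tissues were measured on the same arrays. Summed signal of 11 sperm genes was 1710 to 2100 in rapamycin-treated eat-2 worms, 3890 to 13000 in eat-2 controls, 24100 to 32400 in rapamycin-treated N2 worms, 1810 to 3780 in allantoin-treated N2 worms and 4840 to 18100 in N2 controls, where control 2 was the highest. That of 9 oocyte and eggshell genes was 66200 to 68500, 49300 to 59400, 26500 to 29100, 69300 to 71500 and 36400 to 65700 in the same groups, with control 2 the lowest of the controls. The sperm list thus ran with the abu genes over the N2 arrays and the oocyte list against them. Between rapamycin-treated and allantoin-treated N2 worms, 8 of 11 sperm genes were called higher and 9 of 9 oocyte and eggshell genes lower. In the same comparison 2 of 5 intestinal genes were called lower, 1 of 3 body muscle genes higher, and 3 of 9 embryo genes lower with 1 higher. Of all probe sets 11.9% were called higher and 20.4% in either direction. At adjusted p the intestinal list was split, with 2 genes higher and 2 lower, where 61.3% of all probe sets passed in either direction. The part of these tissues in the abu and pqn values was not tested.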

How the data were processed

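RNA of whole worms was hybridised to Affymetrix C. elegans arrays, and the log2 signals used here were deposited as the authors' RMA output from Expression Console, which they compared in Transcriptome Analysis Console, with versions not given in the sources used here. RMA fits all arrays together and quantile-normalises them, which acts against a global shift between arrays. The array medians of the deposited values still differed by group, at 7.03 to 7.05 in rapamycin-treated N2 worms and 6.79 to 6.83 in rapamycin-treated eat-2 worms. Of 22625 probe sets, 77 controls of the maker were left out. Probe sets were named through the GEO platform annotation, in which 20766 carried 1 symbol, 887 several and 895 none. Each pair of groups was fitted on its 6 arrays with lmFit and eBayes (limma 3.58.1, R 4.3.3), and the interaction on 12 arrays, after the fitting was tested on simulated data. The arrays' number limits the precision. The members, the named genes (all abu genes, the pqn genes with the largest called changes in separate arrays, and pqn genes of known role) and the marker lists were chosen with earlier results of these data known. The sources used here do not say whether replicate numbers pair the samples, and the main fits used no pairing. Same-numbered arrays deviated together with r above 0.1 in 9 of 30 pairs (-0.35 to 0.45). The highest r, 0.45, was between N2 and eat-2 controls, for replicate 1 and for replicate 2. Arrays of unlike number were not compared, so a shared batch cannot be told from these values. Alternatives covered scaling, dim probe sets, probe choice, pooled fits, array weights, blocks, thresholds and each array left out.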

Additional observations from a re-analysis of the deposited data

Results flagged for a closer look

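For 12 of the 58 members the effect of rapamycin differed between eat-2 and N2 worms by the interaction test in limma at adjusted p under 0.05. The share was 18.2% of the abu genes and 21.3% of the pqn genes, where 24.4% of all probe sets passed the same test, so it was not above the background. The log2 interaction, the change in eat-2 worms minus the change in N2 worms, was -1.29 for abu-13 (adjusted p = 0.00825) and -2.2 for abu-14 (adjusted p = 0.0148). Among the pqn genes it was negative for pqn-31 (-1.69, adjusted p = 0.0482), pqn-89 (-1.31, adjusted p = 6.02e-04), pqn-13 (-1, adjusted p = 0.00312), pqn-35 (-0.97, adjusted p = 0.0382), pqn-42 (-0.94, adjusted p = 0.0196), pqn-26 (-0.7, adjusted p = 0.0167), pqn-54 (-0.65, adjusted p = 0.0408) and pqn-18 (-0.64, adjusted p = 0.0381). It was positive for pqn-82 (1.01, adjusted p = 0.0319) and pqn-27 (0.63, adjusted p = 0.00759). For pqn-89 the change was -0.65 in eat-2 worms and 0.67 in N2 worms, each with adjusted p under 0.05. No test for a single distant array was run within the groups of 3, and N2 control 2 is described by its values and by the counts without it.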

How the results depend on the processing

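All of 56 single-gene calls kept their direction in the settings tried, and 122 of 964 gene and setting pairs lost the call. Of 248 family medians, 241 moved by less than the spread between arrays, and 2 changed sign, the abu medians with unique probe sets only, at 0.04 for eat-2 against N2 controls and 0.05 for rapamycin-treated eat-2 against rapamycin-treated N2 worms, where 5 abu genes could be read, 3 of them flat. Median centring took the median of all probe sets to 0.33 for rapamycin-treated eat-2 against rapamycin-treated N2 worms, -0.27 for rapamycin-treated against allantoin-treated N2 worms and 0.23 for the interaction. The number of arrays and probes shared by related genes limit the values, and the causes of the changes in count were not tested.

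For allantoin-treated N2 worms against N2 controls, the 4 abu calls became 0 with the unmoderated test, 0 at adjusted p under 0.05 and 0 with unique probe sets only, and 0 to 6 on leaving out each array. The 2 pqn calls became 6 at a fold of 1.5, 0 at adjusted p under 0.05, and 2 to 6 on leaving out each array.

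For rapamycin-treated N2 worms against N2 controls, the 3 abu calls became 5 with all 15 arrays in a single fit, 7 with array weights, 5 with the replicate block, 1 at adjusted p under 0.05 and 1 with unique probe sets only, and 2 to 7 on leaving out each array. The 2 pqn calls became 1 with median centring, 12 at a fold of 1.5, 0 with the unmoderated test, 4 at adjusted p under 0.05 and 1 with unique probe sets only, and 0 to 4 on leaving out each array.

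For eat-2 controls against N2 controls, the 6 abu calls became 1 with the unmoderated test, 0 at adjusted p under 0.05 and 2 with unique probe sets only, and 1 to 6 on leaving out each array. The pqn count of 0 became 1 with all 15 arrays in a single fit, 1 with array weights and 1 with the replicate block, and 0 to 3 on leaving out each array.

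For rapamycin-treated eat-2 worms against eat-2 controls, abu calls stayed at 0 in every setting, and the 1 pqn call became 0 with array weights, 3 at a fold of 1.5, 5 at adjusted p under 0.05 and 0 with unique probe sets only, and 0 to 1 on leaving out each array.

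For rapamycin-treated eat-2 against rapamycin-treated N2 worms, the 7 abu calls became 2 with unique probe sets only, and the 7 pqn calls became 17 at a fold of 1.5 and 22 at adjusted p under 0.05. For rapamycin-treated against allantoin-treated N2 worms, the 7 abu calls became 2 with unique probe sets only, and the 8 pqn calls became 17 at a fold of 1.5, 28 at adjusted p under 0.05 and 4 with unique probe sets only. Leaving out each array gave 7 abu calls in both and 7 to 9 and 7 to 11 pqn calls.

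For the interaction, the 4 abu calls became 7 with array weights, 2 at adjusted p under 0.05 and 1 with unique probe sets only, and 2 to 7 on leaving out each array. The 5 pqn calls became 8 with array weights, 13 at a fold of 1.5, 10 at adjusted p under 0.05 and 3 with unique probe sets only, and 2 to 8 on leaving out each array. The replicate block moved no other count by over 1.5 times.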
